A study of Mus musculus with 16 samples.

Results

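The genes of mouse chromosome 18 were taken from a count table of the whole hippocampus and read in order of position, to find neighbouring genes that differed between 3xTg and WT mice. The members were chosen by location and by their mean raw count, and the stretches described below were chosen by the genotype difference in the vehicle mice. Members were all genes whose listed location was on chromosome 18, other than 64 left out by name, which were the clustered protocadherins and 6 single genes. This kept 1334 of the 1398 chromosome 18 genes in a table of 55335 genes. Of the 1334, 464 had no count in any mouse and 458 had a mean under 10 raw counts over the 16 mice, so 412 genes were described. The test could be run on 411 of these, and Eif3j2 did not pass its filter on low counts. Cabyr and Mir7220 lay just outside the minimum, each with a mean of 9.812 counts, and 4933408B17Rik lay just inside it with 10.25.

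The 16 libraries came from female mice of 10 months, with 4 mice in each of 4 groups. The 3xTg mice are a transgenic model of Alzheimer's disease and carry, among their alleles, human APPSwe and tauP301L transgenes driven by the neuronal Thy1.2 promoter. The WT mice are labelled C57BL/6J x 129S1, and the 3xTg mice are of a mixed B6;129 background. All mice had 28 days of infusion into a lateral ventricle, of either vehicle (0.8% DMSO in artificial cerebrospinal fluid, groups WT-D and 3xTg-D) or 80 µM CAY10566, an inhibitor of stearoyl-CoA desaturase (groups WT-S and 3xTg-S). No group was left without an infusion. Both genotypes were bred as separate lines, so the engineered alleles and other inherited differences between the lines cannot be told apart here.

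Both parental strains of such mice, C57BL/6 and 129, differ at many positions in the genome, and a colony of mixed origin can become fixed for one parent's copy of a chromosome segment. Genes in one segment are inherited together, whatever their function. The Thy1 gene, whose promoter drives the transgenes, lies on another chromosome. Chromosome 18 carries genes for synapses, immune cells, vessels and glia, as well as many copies of genes from elsewhere that were inserted by reverse transcription.

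The libraries held 15413385 to 23590149 reads on genes, and 7.815% to 15.14% of reads fell outside genes. Expression is given as CPM, the counts scaled to each library's reads on genes after TMM normalization. Thy1 checked the genotype labels: it was at 549.9 ± 25.6 CPM in the WT-D mice against 1887 ± 122 CPM in the 3xTg-D mice (SD, n = 4). Markers of hippocampal neurons, astrocytes, microglia, oligodendrocytes and vessels were above 1 CPM in every mouse, and no marker was at 0 throughout. The summed oligodendrocyte markers ranged from 3485 to 3825 CPM in 3xTg-D and from 2767 to 3256 CPM in WT-D. The summed choroid plexus markers reached 1397 CPM in WT-D mouse 4 and 680.1 CPM in WT-S mouse 1, and ranged from 169.7 to 269.2 CPM in the other mice.

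The first question was how many chromosome 18 genes differed by genotype. In the vehicle mice, 34 of 411 genes (8.27%) passed the study's unadjusted threshold of 0.01 by edgeR's quasi-likelihood test, against 4.91% of all 16475 tested genes. These were 15 genes higher (2.44% of all tested genes were) and 19 genes lower in 3xTg-D (2.47%). In the CAY10566 mice, which share no animal with the vehicle mice, 34 genes (8.27%) again passed, against 4.26% of all tested genes, with 11 higher (1.79%) and 23 lower in 3xTg-S (2.47%). At an adjusted p of 0.05 or less, 14 genes remained with vehicle (1.85% of all tested genes did) and 10 with CAY10566 (1.4%). The values of the 2 genotypes did not overlap for 49 genes with vehicle (8.17% of all tested genes) and for 52 genes with CAY10566 (6.75%). For a gene of this kind, an exact two-sided permutation test of 4 against 4 mice gives p = 0.0286, the smallest this design allows.

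Chromosome 18 ranked 2 of 20 chromosomes by this share in both comparisons. Among the others, the share of genes with the same minimum count ranged from 1.38% to 11.3% with vehicle and from 1.64% to 9.95% with CAY10566, and chromosome 13 had the highest share in both. No gene was left out by name on the other chromosomes. With all 494 tested genes of chromosome 18 counted, its shares were 9.11% and 9.51%. The typical gene did not stand apart. The median absolute log2 fold change between genotypes was 0.0953 for the chromosome 18 genes and 0.0998 for all tested genes with vehicle, and 0.1206 and 0.1201 with CAY10566. A change of 2-fold or more was measured for 14 genes with vehicle (3.41%, against 2.26% of all tested genes) and for 16 with CAY10566 (3.89%, against 2.68%).

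**Figure D1:**
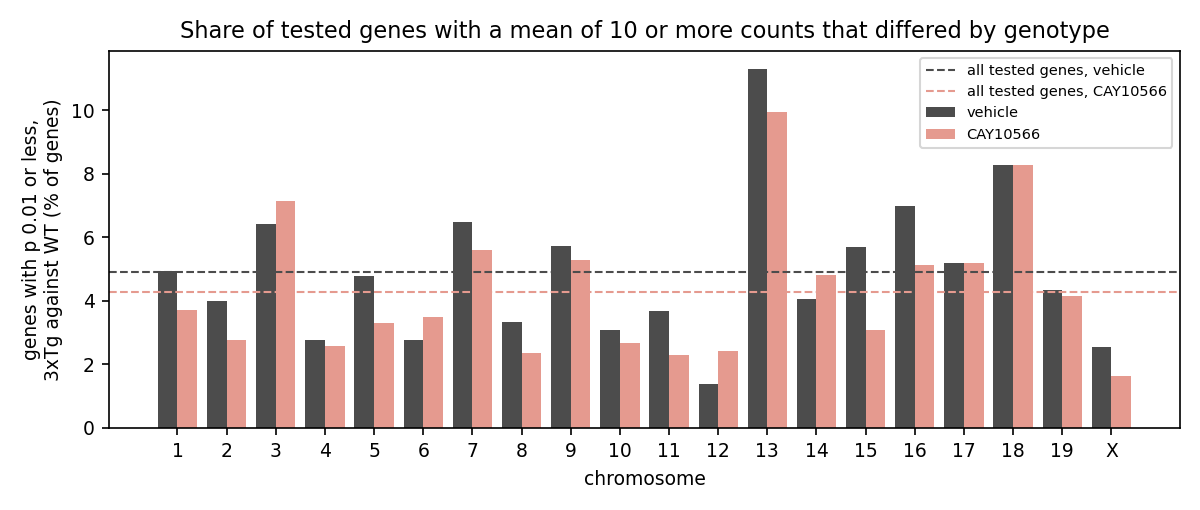
Bars show, for each chromosome, the percent of tested genes with a mean of 10 or more counts that passed the unadjusted threshold of 0.01 between 3xTg and WT mice (edgeR), with vehicle (dark) and with CAY10566 (light); dashed lines show all tested genes. Chromosome 18 stands at 8.27% in both comparisons, above the lines at 4.91% and 4.26% and below chromosome 13.

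There were 16 genes that passed in both genotype comparisons, all in the same direction, or 3.89% of the 411 genes against 1.94% of all tested genes. Of these, 5 were higher in 3xTg mice (Sap130, Ccbe1, Zfp236, Gm10524 and Gm46620) and 11 were lower (Gm41662, Esco1, Rit2, Lims2, Gm10548, Eno1b, 1500015A07Rik, Pmaip1, Gm7276, Gm50350 and Eif3s6-ps2). An adjusted p of 0.05 or less was reached in both comparisons by 8 of the 411 genes, and by 140 of all 16475 tested genes. Of the 34 genes called with vehicle, 33 had the same direction with CAY10566 (97.1%, against 92.1% for all tested genes called with vehicle). For 10 of the 16 genes, all 8 WT mice lay on one side of all 8 3xTg mice. The other 6 genes, in which at least 1 mouse of each genotype overlapped, were Rit2, Eno1b, 1500015A07Rik, Ccbe1, Pmaip1 and Eif3s6-ps2. The 16 genes were chosen by their difference in these same mice, so this separation is a description. It was not counted over all tested genes. Protein-coding genes made up 8 of the 16, and the rest were noncoding RNAs, a pseudogene and loci of unconfirmed coding status. Among genes not coding for protein, 8 of 68 (11.8%) passed in both comparisons, against 3.82% of such genes in the whole table, and among coding genes 8 of 343 (2.33%), against 1.64%.

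Along the chromosome, the called genes were spread unevenly. In segments of 10 Mb, the share called with vehicle was highest among segments with more than 3 genes between 80 and 90 Mb, where 7 of 32 genes (21.9%) passed, and 4 of these 32 (12.5%) passed with CAY10566. Between 50 and 60 Mb, none of 28 genes passed with vehicle (3 had p under 0.05 by edgeR, and DESeq2 called 0) and 1 with CAY10566. The segment from 20 to 30 Mb held 1 called gene of 30 with vehicle and none with CAY10566, where 1 had p under 0.05 by edgeR and DESeq2 called 0. The gene-rich segment from 30 to 40 Mb held 9 of 99 genes called with vehicle and 6 with CAY10566, of which Rit2, Sap130, Lims2 and Gm10548 passed in both.

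A stretch was placed where at least 3 genes called in the vehicle mice followed each other with at most 3 uncalled genes between neighbours. Since the vehicle mice placed the stretches, their values inside them are a description, and the CAY10566 mice give the same measure in other animals. The 411 genes held 3 stretches by this rule. Over all tested genes of each chromosome, with nothing left out by name or by the minimum count, chromosome 18 had 6 stretches and the others 0 to 9, with a median of 3, and 2 chromosomes had more than chromosome 18. The 3 stretches differed in how many of their genes passed in the CAY10566 mice: none of 3 in the first, 2 of 3 in the second and all 4 in the third.

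**Figure D2:**
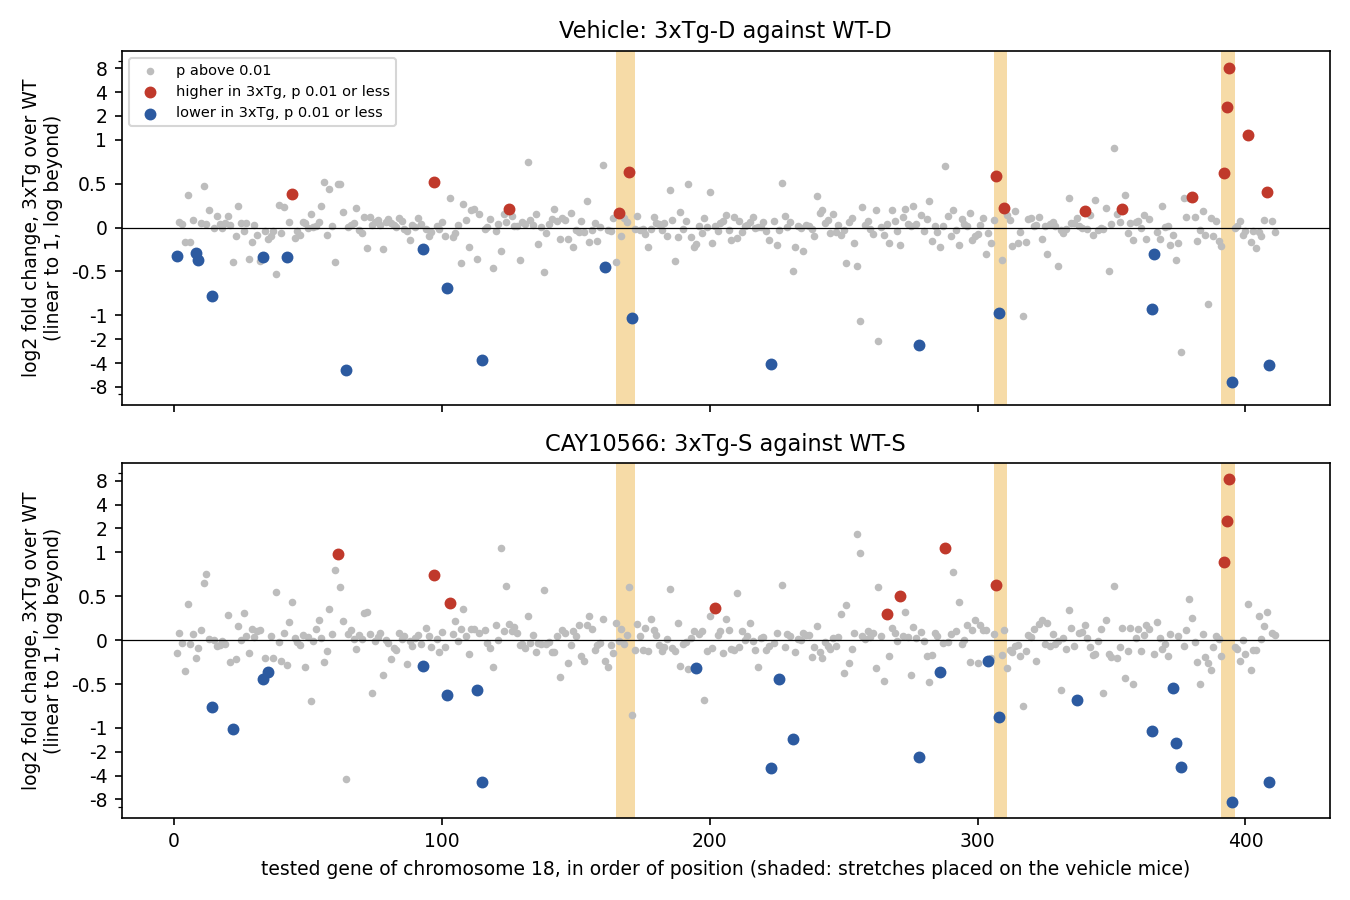
Each point is one of the 411 tested genes, placed by its order along chromosome 18, with the log2 fold change of 3xTg over WT mice on the vertical axis (linear up to 1, logarithmic beyond), for vehicle (top) and CAY10566 (bottom); red and blue points passed the unadjusted threshold of 0.01 and shaded bands are the stretches placed on the vehicle mice. The third band, near the right end, holds 4 called points in both panels, and the first holds none in the lower panel.

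The stretch called throughout in both treatments ran over 112.6 kb from Zfp236 to Gm50350 (GRCm38 chromosome 18, 82593593 to 82706174). It holds the zinc finger gene Zfp236, the unconfirmed locus Gm10524, which overlaps the start of Zfp236 on the opposite strand, and the long noncoding RNAs Gm46620 and Gm50350. The nearest described genes on either side, Sall3 and Zfp516, lay 1610 and 204 kb away and had log2 fold changes of -0.21 (adjusted p = 0.6427) and -0.01 (adjusted p = 0.9873) with vehicle by edgeR's quasi-likelihood test. With CAY10566 these were -0.18 (adjusted p = 0.6528, edgeR) and -0.08 (adjusted p = 0.8136, edgeR). Genes left out by name are not counted among these neighbours. With them put back, the stretch began at Mbp, which passed the unadjusted threshold with vehicle, so its start here depends on what was left out. The change in direction fell within a few kb: 3 neighbours were higher in 3xTg mice and Gm50350 was lower.

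Zfp236 encodes a zinc finger protein whose expression is known to respond to glucose. Its level was 29.4, 25.6, 31.3 and 33.8 CPM in the 4 WT-D mice and 41.2, 42.8, 48.5 and 51.7 CPM in the 3xTg-D mice. In the CAY10566 mice it was 26.4, 22.02, 28.8 and 37.3 CPM in WT-S and 49.2, 47.6, 53.9 and 62.7 CPM in 3xTg-S. Every 3xTg mouse was above every WT mouse. The log2 fold change was 0.62 ± 0.10 (SE) with vehicle, or 1.54-fold, and 0.88 ± 0.15 with CAY10566, or 1.85-fold (adjusted p = 0.0138, edgeR).

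Gm10524 lies at the 5' end of Zfp236, at 82692284 to 82694176. It stood at 0.76, 0.576, 1.00 and 1.07 CPM in WT-D against 5.38, 4.32, 4.83 and 6.05 CPM in 3xTg-D. With CAY10566 it stood at 1.17, 1.09, 0.779 and 1.03 CPM in WT-S against 5.36, 5.2, 6.36 and 6.53 CPM in 3xTg-S. The genotypes were far apart in relation to the spread within them, with log2 fold changes of 2.59 ± 0.21 and 2.51 ± 0.18 (SE; adjusted p = 3.315e-05 with CAY10566, edgeR). Whether the counting used strand is not stated, so reads of Gm10524 and of the overlapping end of Zfp236 cannot be told apart with certainty.

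Gm46620, at 82694287 to 82701336, was present in one genotype only as far as these depths show. It had no count in any of the 8 WT mice. It was at 1.48, 1.55, 2.12 and 1.31 CPM in the 3xTg-D mice and at 1.5, 1.76, 2.44 and 2.92 CPM in the 3xTg-S mice. Against a floor of 3 counts over the group, it was at least 45.27-fold higher in 3xTg-D and at least 58.22-fold higher in 3xTg-S. Gm50350, which starts about 1 kb further at 82702432 and ends at 82706174, had the reverse pattern. It was at 2.49, 2.59, 2.45 and 2.2 CPM in WT-D and 2.11, 2.9, 2.43 and 2.5 CPM in WT-S. A single count, in 3xTg-D mouse 2, was found in the 8 3xTg mice. The ratio of WT-D to 3xTg-D was 193.2 with a 95% interval of 34.29 to 7668 for counting error alone, and WT-S was at least 58.01-fold higher than 3xTg-S.

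**Figure D3:**
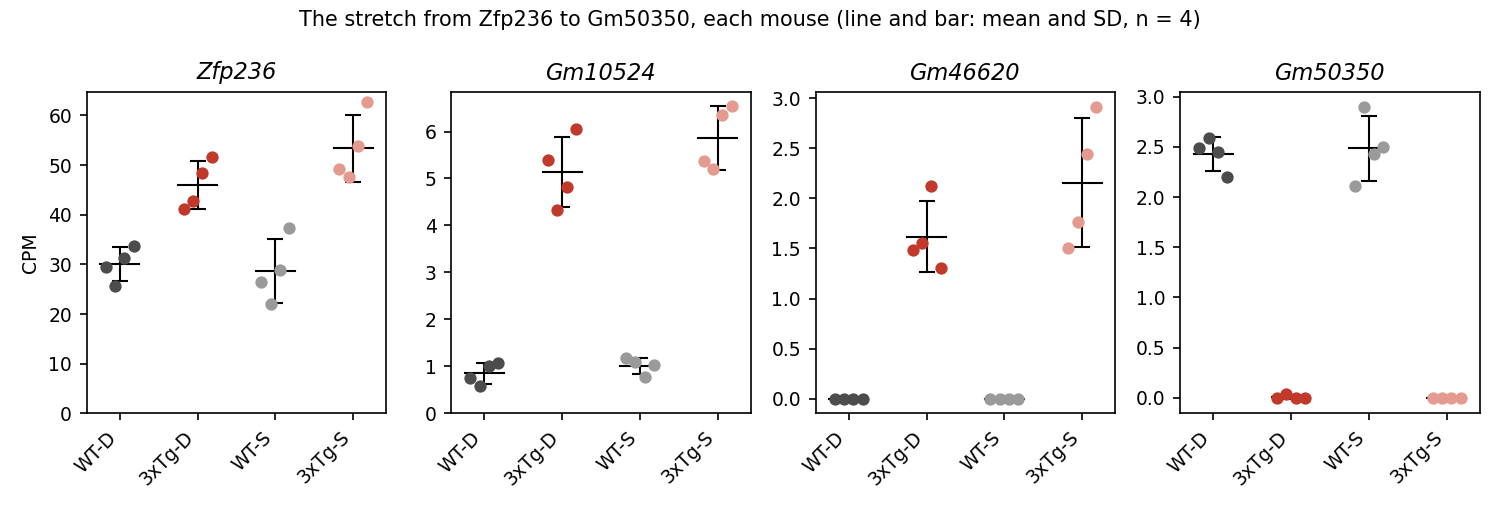
Points show the CPM of each mouse for the 4 genes of the stretch from Zfp236 to Gm50350, with the mean and SD of each group of 4. The first 3 panels are higher in both 3xTg groups and Gm50350 is at or near 0 in them; the values of Gm46620 are 0 in all WT mice.

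Within a genotype, the 4 genes of this stretch did not vary together in a common direction. After subtraction of group means, their correlations over 8 mice averaged -0.16 in WT mice (6 gene pairs, -0.51 to 0.45) and 0.10 in 3xTg mice (-0.60 to 0.69), where one partner of a pair with nearly all counts at 0 contributes little but noise. The next gene called beyond the stretch was Dipk1c, which encodes a protein of a kinase-like family, at 84719236. It was at 2.7, 2.74, 2.1 and 2.4 CPM in WT-D and rose to 4.51, 6.46, 6.1 and 4.85 CPM in 3xTg-D, a log2 fold change of 1.14 ± 0.16 (SE; adjusted p = 0.004808, edgeR). In the CAY10566 mice Dipk1c overlapped between genotypes, at 2.77, 3.47, 3.03 and 2.33 CPM in WT-S and 4.25, 4.48, 3.98 and 2.86 CPM in 3xTg-S. Its interaction of genotype and inhibitor, -0.72 ± 0.25 (SE, log2 scale), just missed the threshold (adjusted p = 0.7876, edgeR).

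The second stretch ran over 1181 kb from Ccbe1 to Gnal (66045302 to 67226792) and held Ccbe1, Pmaip1, Mc4r and Gnal. Ccbe1 encodes a secreted protein needed for lymphatic vessel growth. It was at 19.9, 17.0, 15.6 and 24.7 CPM in WT-D and at 34.7, 21.4, 28.8 and 31.3 CPM in 3xTg-D, with 1 3xTg-D mouse inside the WT-D range, and that call was lost without any one of 5 mice. In the CAY10566 mice the groups were apart, at 17.3, 15.9, 19.8 and 21.7 CPM in WT-S and between 28.2 and 29.4 CPM in every 3xTg-S mouse. The log2 fold change there was 0.62 ± 0.10 (SE; adjusted p = 0.01047, edgeR). In a whole tissue, fewer cells of one type and less RNA per cell cannot be told apart, for this and for every gene below.

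Pmaip1, which encodes the pro-apoptotic protein Noxa, fell in 3xTg mice. It was at 4.48, 5.38, 3.55 and 2.6 CPM in WT-D and 2.42, 2.18, 1.8 and 1.74 CPM in 3xTg-D. In the CAY10566 mice it was at 4.18, 3.99, 4.63 and 2.93 CPM in WT-S and 1.9, 3.24, 1.48 and 1.94 CPM in 3xTg-S, where 1 mouse of each genotype overlapped. The log2 fold changes were -0.97 ± 0.23 and -0.87 ± 0.25 (SE), and with CAY10566 the call was lost without any one of 6 of the 8 mice. Gnal, the alpha subunit of the olfactory-type stimulatory G protein, rose with vehicle by a log2 fold change of 0.22 ± 0.06 (adjusted p = 0.08764, edgeR). With CAY10566 it had 0.12 ± 0.09 (adjusted p = 0.6842, edgeR). Mc4r, the melanocortin 4 receptor, did not pass in either (adjusted p = 0.4288 and 0.7748, edgeR). Placed on the CAY10566 mice instead, this stretch ran from Sec11c to Pmaip1, so only Ccbe1 and Pmaip1 were called in it by both sets of mice. The CAY10566 mice also placed a stretch from Slc14a1 to Gm5823 (78.1 to 79.96 Mb). It held 3 called genes, and none of its genes was called with vehicle. Slc14a2, within it, had a log2 fold change of -1.56 between genotypes with CAY10566.

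The first stretch ran over 1002 kb from Hars to Gm26672 (36766528 to 37768242) and spans the protocadherin clusters that were left out. Its 3 called genes were Hars, the cytosolic histidyl-tRNA synthetase, and the long noncoding RNAs 3222401L13Rik and Gm26672. Hars rose from 78.1 to 88.3 CPM in WT-D to 90.9 to 95.2 CPM in 3xTg-D, a call lost without any one of 6 mice. In the CAY10566 mice the groups overlapped, with a log2 fold change of -0.01 ± 0.09 (SE). 3222401L13Rik was at 2.25 to 2.64 CPM in WT-D and 3.49 to 4.45 CPM in 3xTg-D, and at 2.12 to 3.12 CPM in WT-S and 3.14 to 4.69 CPM in 3xTg-S. Its groups did not overlap in either treatment, and with CAY10566 it lay just short of the threshold (log2 fold change 0.61 ± 0.19, SE). Gm26672, which lies opposite to protocadherin gamma genes, fell from 1.35, 1.44, 2.35 and 2.15 CPM in WT-D to 0.989, 0.797, 0.743 and 0.927 CPM in 3xTg-D (adjusted p = 0.0569, edgeR). With CAY10566 its log2 fold change was -0.85 ± 0.31 (adjusted p = 0.3218, edgeR). Hars2, Zmat2 and Taf7, the described genes between them, did not pass in either treatment. With the left-out genes put back, the stretch from Hars to Gm26672 was no longer placed. Stretches then ran from Pcdhb3 to Pcdhb9, from 3222401L13Rik to Pcdhga6 and from Pcdhgb6 to Pcdhga11. In these first 2 stretches too, correlations within a genotype had both signs, from -0.90 to 0.79 in WT mice of the first and from -0.79 to 0.73 in WT mice of the second.

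Outside the stretches, the coding genes called in both comparisons formed no stretch by this rule, but Rit2, Sap130 and Lims2 lay near each other. Rit2 lay 317.1 kb from Sap130, and Sap130 lay 199.2 kb from Lims2. In the vehicle mice, a stretch ran from Rit2 to Lims2 with at most 5 uncalled genes between neighbours. DESeq2 placed one from Celf4 to Sap130. Sap130, a subunit of the Sin3 histone deacetylase corepressor complex, was at 37.9, 36.3, 36.7 and 37.8 CPM in WT-D and at 51.2, 46.7, 51.6 and 63.9 CPM in 3xTg-D. With CAY10566 it was at 34.7, 36.6, 31.7 and 39.9 CPM in WT-S and 65.9, 51.7, 61.5 and 62.2 CPM in 3xTg-S. No WT mouse reached the lowest 3xTg mouse. The log2 fold changes were 0.52 ± 0.09 and 0.74 ± 0.10 (SE; adjusted p = 0.01269 and 0.003069, edgeR).

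Esco1, an acetyltransferase of the cohesin complex, fell in 3xTg mice. It was at 37.6, 39.1, 39.5 and 37.2 CPM in WT-D and 30.5, 31.3, 29.0 and 30.9 CPM in 3xTg-D, and at 40.4, 37.7, 44.7 and 45.7 CPM in WT-S and 32.4, 30.8, 28.6 and 33.0 CPM in 3xTg-S. The change was small, 1.26-fold and 1.36-fold, but the groups were tight and did not overlap (log2 fold changes -0.33 ± 0.05 and -0.45 ± 0.09, SE).

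Lims2 and Gpr17 overlap on opposite strands near 31.9 Mb and moved in opposite directions. Lims2 encodes an adaptor of integrin-linked kinase at focal adhesions. It was at 6.34, 8.64, 7.31 and 8.07 CPM in WT-D and 5.33, 5.58, 4.03 and 3.76 CPM in 3xTg-D, and at 7.09, 6.94, 7.38 and 5.92 CPM in WT-S and 4.77, 4.53, 4.17 and 4.37 CPM in 3xTg-S, a fall of 1.61-fold and 1.55-fold. Gpr17, a receptor of committed oligodendrocyte precursors, rose with CAY10566 by a log2 fold change of 0.42 ± 0.11 (SE, adjusted p = 0.1051, edgeR). It was at 34.6 to 39.6 CPM in WT-S and 41.7 to 59.5 CPM in 3xTg-S. With vehicle it had 0.33 ± 0.13 (adjusted p = 0.324, edgeR). The summed oligodendrocyte markers were higher in 3xTg-D than in WT-D, as given above, and overlapped in the CAY10566 groups (2499 to 3960 CPM in 3xTg-S, 2164 to 3395 CPM in WT-S). Their part in the Gpr17 values was not tested.

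Rit2, a neuronal Ras-like GTPase, fell by 0.24 ± 0.07 on the log2 scale with vehicle, from 82.3, 99.4, 95.4 and 82.7 CPM in WT-D to 73.4, 77.1, 76.4 and 76.6 CPM in 3xTg-D. With CAY10566 it fell by 0.29 ± 0.09, and WT-S (85.8 to 99.5 CPM) and 3xTg-S (70.03 to 87.9 CPM) overlapped. This was the smallest change of the 16 in both comparisons, and the call was lost without any one of 4 mice with vehicle and of 6 with CAY10566.

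**Figure D4:**
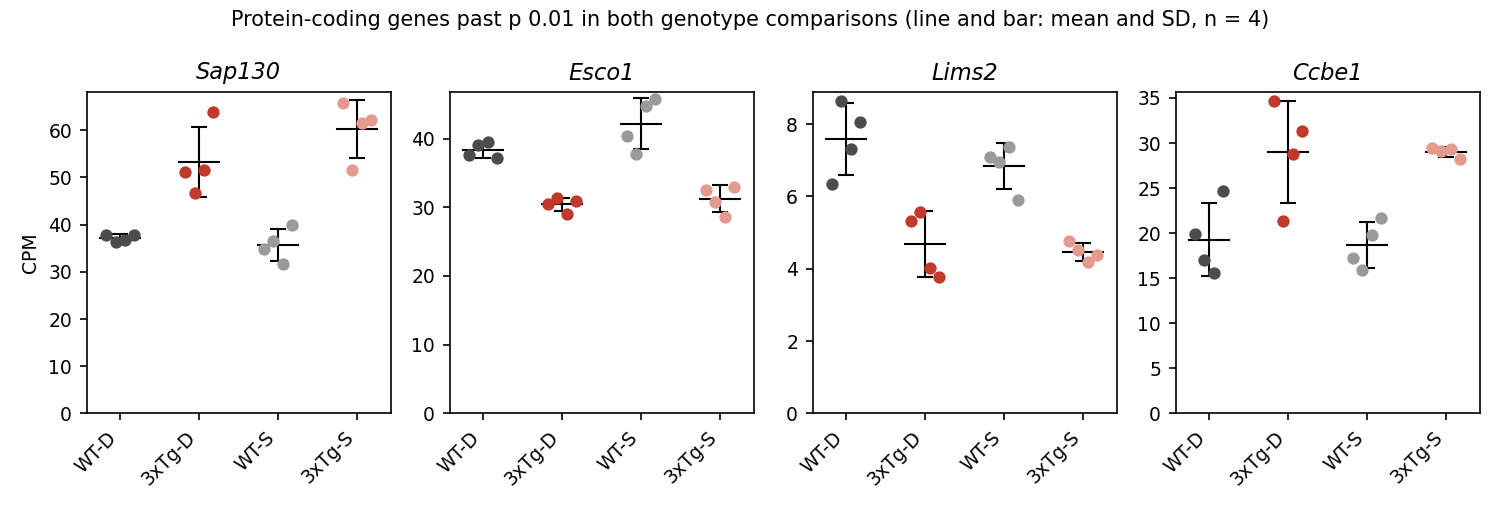
Points show the CPM of each mouse for 4 protein-coding genes that passed the unadjusted threshold of 0.01 in both genotype comparisons, with the mean and SD of each group of 4. Sap130 and Ccbe1 are higher and Esco1 and Lims2 lower in both 3xTg groups, and among these only Ccbe1 has a 3xTg mouse inside the WT range.

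Among the noncoding genes, Gm10548 overlaps Apc on the opposite strand. It was at 0.591, 1.39, 0.901 and 1.12 CPM in WT-D and 1.17, 1.61, 1.28 and 1.41 CPM in WT-S. In 3xTg mice it had between 0 and 0.131 CPM, with no count in 3 of the 8. The log2 fold change was -3.62 ± 0.52 (SE) with vehicle, and with CAY10566 the 110 counts over WT-S against 3 over 3xTg-S gave a ratio of 31.91 with a 95% interval of 10.64 to 157.1 for counting error. Apc itself, the scaffold that targets beta-catenin for degradation, had log2 fold changes of -0.02 ± 0.11 and 0.12 ± 0.09 and did not pass.

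Gm7276 overlaps the ganglioside synthesis gene St8sia5 on the opposite strand. Gm7276 fell from 2.55 to 3.13 CPM in WT-D to 1.01 to 1.98 CPM in 3xTg-D, and from 2.17 to 3.35 CPM in WT-S to 0.572 to 2.03 CPM in 3xTg-S. St8sia5 was named after its values were seen. It fell with vehicle, by a log2 fold change of 0.30 ± 0.07, and had -0.16 ± 0.10 (SE) with CAY10566 (adjusted p = 0.6518, edgeR). Reads of these overlapping genes may not be fully separated. Gm41662, an unconfirmed locus at 6.01 Mb, overlaps no other gene when those with very low counts are left out. Gm41662 fell from 1.92 to 2.55 CPM in WT-D to 1.15 to 1.47 CPM in 3xTg-D. With CAY10566 it fell from 1.97 to 3.2 CPM in WT-S to 1.19 to 1.73 CPM in 3xTg-S.

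In 3 of the genes called in both comparisons, single WT mice had the level of the 3xTg mice. Eno1b, a copy of the glycolytic enzyme gene Eno1 with no introns, was at 9.55, 8.06 and 8.53 CPM in WT-D mice 1, 3 and 4 but at 0.336 CPM in mouse 2. It was at 7.28, 7.1 and 7.29 CPM in WT-S mice 1 to 3 and at 0.326 CPM in mouse 4. The 8 3xTg mice were between 0.218 and 1.03 CPM. Levels between these ranges were found in no mouse. The log2 fold changes were -4.16 ± 0.81 and -3.24 ± 0.73 (SE), in which the SE carries this spread. The parent gene Eno1, on chromosome 4, was at 70.73 to 121.2 CPM in WT-D and 102.1 to 118.1 CPM in 3xTg-D, and at 73.1 to 102.1 CPM in WT-S and 100.5 to 113.0 CPM in 3xTg-S. Its log2 fold change was 0.28 ± 0.14 (SE) with vehicle and 0.37 ± 0.10 with CAY10566, where Eno1 passed the unadjusted threshold (adjusted p = 0.1501, edgeR), in the direction opposite to Eno1b. Reads of Eno1b are uncertain where the sequences match.

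Eif3s6-ps2, a processed pseudogene of the translation factor gene Eif3e at 90.3 Mb, split the WT mice at another place. It was at 5.67, 3.55 and 3.27 CPM in WT-D mice 2, 3 and 4 and at 0.0845 CPM in mouse 1. In WT-S it was at 6.00 and 6.95 CPM in mice 3 and 4 and at 0.141 and 0.259 CPM in mice 1 and 2. Every 3xTg mouse had 0.294 CPM or less. Eif3e, on chromosome 15, did not pass in either comparison (log2 fold changes 0.07 ± 0.08 and -0.10 ± 0.14, SE).

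1500015A07Rik, a long noncoding RNA opposite to Afap1l1, was at 22.3, 37.8 and 21.4 CPM in WT-D mice 2, 3 and 4 and at 4.9 CPM in mouse 1, within the 3xTg-D range of 3.48 to 5.11 CPM. All WT-S mice were high, at 21.3, 21.8, 23.01 and 17.9 CPM, against 4.51, 3.00, 4.95 and 4.7 CPM in 3xTg-S. With CAY10566, where no mouse crossed, it had the smallest p of all 411 genes (log2 fold change -2.31 ± 0.15, SE; adjusted p = 1.927e-05, edgeR).

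WT mice were also split in genes outside the naming rule, chosen here after their values were seen. Gm5823, a processed pseudogene, was at 2.83 and 2.71 CPM in WT-D mice 2 and 4 and 3.15 and 2.71 CPM in WT-S mice 1 and 4, and at 0.415 CPM or less in the other WT mice and in every 3xTg mouse. Eif3j2, the gene that could not be tested, was at 3.55, 4.15 and 3.94 CPM in WT-D mice 1 and 3 and WT-S mouse 2, and at 0.382 CPM or less in the other 13 mice. WT-S mouse 4 alone stood low for a pair of pseudogenes, with no count of Gm6724 and 0.163 CPM of Gm10036. All other mice, the 3xTg mice included, had 3.47 to 10.8 CPM of Gm10036, so this split differed from those above. The mice that were low differed from gene to gene, and no WT mouse was low for all of them.

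**Figure D5:**
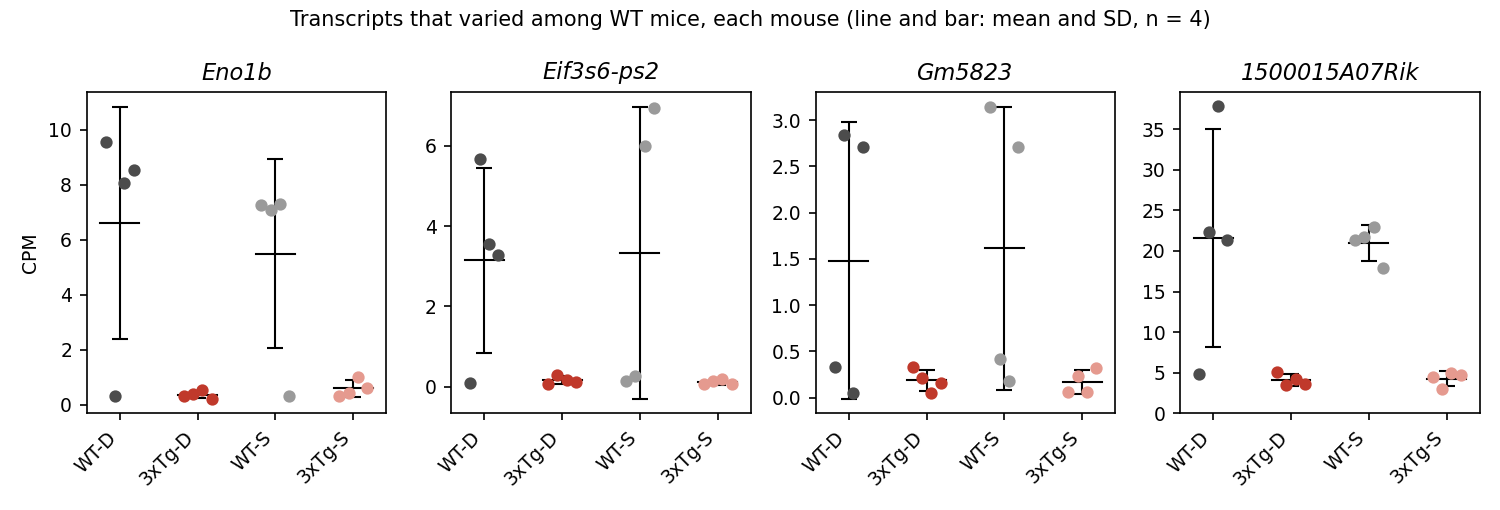
Points show the CPM of each mouse for 4 transcripts in which WT mice differed among themselves, with the mean and SD of each group of 4. In each panel at least 1 WT mouse sits at the level of the 3xTg mice while the others are several times higher, and the 3xTg mice form a single low cluster.

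Counted over all described genes, the spread within a genotype was larger for a few genes in WT mice. An SD of log2 CPM of 1 or more around the group means was found for 10 of the 411 genes in WT mice (2.43%, against 1.14% of all tested genes) and for 5 in 3xTg mice (1.22%, against 0.935%). The 10 in WT mice were Ttr, Eif3s6-ps2, Eno1b, Cd74, Gm4951, Gm5823, Gm10036, Iigp1, Gm6724 and Lipg. The 5 in 3xTg mice were Cd74, Gm4951, Ttr, Iigp1 and Gm2238. The median SD over the chromosome 18 genes was 0.1352 in WT and 0.1593 in 3xTg mice, so the typical gene was not more variable in WT mice.

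Other genes passed in 1 genotype comparison. With vehicle alone, Riok3, a kinase of the RIO family, fell by 0.34 ± 0.06 on the log2 scale (90.2 to 98.6 CPM in WT-D, 68.9 to 80.6 CPM in 3xTg-D) and had -0.29 ± 0.10 with CAY10566 (adjusted p = 0.3059, edgeR). Ankrd29 rose by 0.38 ± 0.08 and had 0.43 ± 0.14 with CAY10566 (adjusted p = 0.2523, edgeR). Rbfa, a factor of mitochondrial ribosome assembly, rose by 0.35 ± 0.07 and had 0.25 ± 0.11 with CAY10566 (adjusted p = 0.4176, edgeR). These genes thus passed with vehicle and had the same sign with CAY10566, and the difference between the treatments did not pass for any of them.

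With CAY10566 alone, Apcdd1, an inhibitor of Wnt signalling, fell by 0.36 ± 0.08 on the log2 scale (24.2 to 29.9 CPM in WT-S, 21.2 to 22.2 CPM in 3xTg-S) and had -0.23 ± 0.08 with vehicle (adjusted p = 0.2493, edgeR). Slc14a1, a urea transporter of astrocytes and red cells, fell from 29.6 to 34.9 CPM in WT-S to 18.3 to 27.1 CPM in 3xTg-S and had -0.09 ± 0.15 with vehicle. Zfp474 fell from 0.597 to 1.15 CPM in WT-S to 0.257 to 0.378 CPM in 3xTg-S. Lars, the cytosolic leucyl-tRNA synthetase, fell by 0.32 ± 0.08 (adjusted p = 0.1099, edgeR) and had -0.19 ± 0.07 with vehicle (adjusted p = 0.2451, edgeR). AC156546.1, a long noncoding RNA, rose from 21.5 to 26.2 CPM in WT-S to 29.2 to 35.7 CPM in 3xTg-S and had 0.02 ± 0.09 with vehicle. The difference between the treatments did not pass for these genes either. In all, 52 of the 411 genes (12.7%) passed in at least 1 genotype comparison, against 7.24% of all tested genes. Of the 52, 13 fell outside the naming rule. Of these 13, the 5 called with vehicle were Crem, Jcad, Svil, St8sia5 and Dok6, and the 8 called with CAY10566 were Armc4, Abhd3, Dsc3, Epb41l4aos, Piezo2, Sec11c, n-R5-8s1 and Gm5823.

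The genes were also read by function, and the shares called in each list stand beside 4.91% and 4.26% of all tested genes and 8.27% of the chromosome 18 genes in both comparisons. Of 63 tested genes for translation, RNA and protein handling, 4 passed with vehicle (6.35%), all higher (Cdc23, Hars, Elac1 and Dym), and 2 passed with CAY10566 (3.17%), both lower (Lars and Sec11c). The median log2 fold change of the list was 0.0389 with vehicle and 0.0133 with CAY10566, beside 0.0149 and 0.0069 for all chromosome 18 genes. Cdc23 is a subunit of the anaphase-promoting complex and was at 55.5 to 59.4 CPM in WT-D and 61.1 to 68.0 CPM in 3xTg-D. Elac1, a tRNA-processing nuclease, was at 40.6 to 42.8 CPM in WT-D and 45.6 to 49.5 CPM in 3xTg-D. Dym, a Golgi protein, was at 35.7 to 39.4 CPM in WT-D and 41.1 to 45.7 CPM in 3xTg-D. The members that moved thus belong to unlike steps, from tRNA charging to the Golgi.

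Of 37 genes for synapses and excitability, 1 rose (Gnal) and 2 fell with vehicle (Rit2 and Tmco6; 8.11% in all), and 1 rose (Slc6a7) and 1 fell (Rit2) with CAY10566 (5.41%), with medians of -0.0129 and -0.0065. Slc6a7, the brain proline transporter, was at 38.1 to 48.8 CPM in WT-S and 49.9 to 56.1 CPM in 3xTg-S. Tmco6 was at 5.79 to 7.11 CPM in WT-D and 4.41 to 5.23 CPM in 3xTg-D. It is counted here only by its place on the list, and its role at synapses was not examined. Of 42 genes for transcription and chromatin, the only genes past the threshold were Zfp236, which rose in both comparisons, and Ppargc1b, which rose with CAY10566 (2.38% and 4.76%, medians 0.004 and 0.019). Of 27 genes for mitochondria and metabolism, Rbfa rose and Pmaip1 fell with vehicle, and Pmaip1 fell with CAY10566 (7.41% and 3.7%, medians 0.004 and -0.0726).

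Of 27 genes of astrocytes, vessels and choroid plexus, Ankrd29 and Ccbe1 rose and Ttr fell with vehicle, and Ccbe1 rose and Slc14a1 fell with CAY10566 (11.1% and 7.41%, medians -0.0152 and 0.0273). Of 15 immune and interferon genes, none passed with vehicle (median -0.0566; 2 had p under 0.05 by edgeR, and DESeq2 called 0) and Tnfaip8, a regulator of cell death and immunity, fell with CAY10566 (6.67%, median 0.1808), from 7.27 to 10.1 CPM in WT-S to 5.94 to 7.26 CPM in 3xTg-S. The remaining 201 tested genes were on no list, and 21 (10.4%) and 24 (11.9%) of them passed with vehicle and with CAY10566.

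Ttr, the thyroid hormone carrier made by the choroid plexus, had the widest range. It was at 1.82, 31.6, 22.2 and 638 CPM in WT-D and 3.85, 4.87, 13.3 and 1.36 CPM in 3xTg-D. In the CAY10566 mice it was at 246 CPM in WT-S mouse 1 and between 0.756 and 5.06 CPM in the other 7. The high mice were those with the highest summed choroid plexus markers. Without Ttr, those markers still summed to 758.5 CPM in WT-D mouse 4 and 434.5 CPM in WT-S mouse 1, against 167.9 to 256 CPM in the others. The fall of Ttr with vehicle (adjusted p = 0.1783, edgeR) was no longer called when WT-D mouse 4 was left out, where the log2 fold change went from -4.89 to -1.66, nor without any single 3xTg-D mouse.

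The immune genes Cd74, the invariant chain of class II antigen presentation, and Iigp1, an interferon-induced GTPase, were set by single mice. Cd74 was at 106 CPM in WT-D mouse 1 and 21.5 CPM in 3xTg-D mouse 2, and at 5.39 CPM or less in the other 14. Iigp1 was at 40.4 CPM in WT-D mouse 1, 12.6 CPM in 3xTg-D mouse 2 and 11.1 CPM in 3xTg-S mouse 1, and at 3.41 CPM or less in the others. Neither passed in any comparison. Csf1r, the receptor that maintains microglia, was at 76.7 to 144 CPM in WT-D and 88.5 to 150 CPM in 3xTg-D and had its highest values in the same pair of mice that led for Cd74.

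Well-known genes of the chromosome mostly did not pass. Aqp4, the water channel of astrocyte endfeet, had log2 fold changes of 0.24 ± 0.16 and 0.03 ± 0.13 (SE). Pdgfrb, the receptor of pericytes, had -0.17 ± 0.11 and -0.18 ± 0.15, and the glucocorticoid receptor gene Nr3c1 had -0.02 ± 0.06 and -0.04 ± 0.08. The transcription factor gene Tcf4 had -0.06 ± 0.05 and 0.02 ± 0.07, and Cdh2, the gene for N-cadherin, 0.02 ± 0.06 and 0.07 ± 0.08. The mitochondrial chaperone gene Hspa9 had 0.04 ± 0.04 and -0.09 ± 0.08, and the ribosomal protein gene Rps14 0.20 ± 0.16 and -0.32 ± 0.18. Egr1, an immediate early gene, was at 80.7 to 128 CPM in WT-D and 69.99 to 83.5 CPM in 3xTg-D (log2 fold change -0.37 ± 0.13, adjusted p = 0.2661, edgeR), and Celf4, a neuronal RNA-binding protein gene, had 0.11 ± 0.04 (adjusted p = 0.3163, edgeR), so both lay short of the threshold.

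The last question was whether CAY10566 changed these genes within a genotype. In 3xTg mice 4 of 411 genes passed (0.973%, against 0.904% of all tested genes), in WT mice 1 (0.243%, against 0.188%), and for the interaction of genotype and inhibitor 3 (0.73%, against 0.595%). None reached an adjusted p of 0.05 by edgeR or DESeq2, and a p under 0.05 before adjustment was found by edgeR for 27, 7 and 21 genes. The called genes were 2 higher (0.279% of all tested genes) and 2 lower (0.625%) in 3xTg mice, 1 lower in WT mice (0.109%) and none higher (0.0789%), and 2 higher (0.303%) and 1 lower (0.291%) for the interaction. These shares lie near the background. In 3xTg mice, Aldh7a1, an enzyme of lysine breakdown, fell from 71.8 to 89.9 CPM in 3xTg-D to 46.1 to 67.1 CPM in 3xTg-S. Slc14a2, a urea transporter, fell from 0.503 to 1.48 CPM to 0.143 to 0.45 CPM. AC156546.1 rose by 0.32 ± 0.10 on the log2 scale, and Rnf165, a ubiquitin ligase of developing motor neurons, rose from 65.5 to 67.7 CPM to 73.2 to 80.2 CPM. In WT mice, the noncoding RNA Gm19500 fell from 3.35 to 4.6 CPM to 2.28 to 3.1 CPM, and it lost its call with the replicate numbers as a block.

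Of the 3 genes with an interaction, Ppargc1b, a coactivator of mitochondrial genes, was at 5.86 to 7.9 CPM in WT-D and 5.12 to 6.6 CPM in 3xTg-D, but at 4.93 to 6.13 CPM in WT-S and 5.72 to 8.83 CPM in 3xTg-S. The genotype difference was 0.72 ± 0.21 (SE, log2 scale) greater with CAY10566 than with vehicle (adjusted p = 0.7876, edgeR). Rnf165 had an interaction of 0.27 ± 0.08, and the noncoding RNA Gm31087 one of -0.81 ± 0.23. None of the 16 genes called in both genotype comparisons passed within a genotype or in the interaction. For the stretch from Zfp236 to Gm50350, the genotype difference was thus present in both treatments, with no difference between treatments past the threshold.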

How the data were processed

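Bulk RNA sequencing of whole hippocampus was analysed in 16 mice, 4 per group. The authors trimmed reads with Trimmomatic 0.35, aligned them with STAR 2.5.1b to GRCm38 with Gencode M23 genes, and deposited raw counts per gene, without normalization. The library protocol used molecular identifiers, but their removal and the strand setting of the counting are not given in the sources used here. Locations and categories are those of the table, and strands came from Gencode M21. Overlaps were taken from the table's locations, leaving out genes with very low counts. A shared protocol text names another inhibitor than the treatment labels, which were followed.

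Genes were filtered by filterByExpr over the 4 groups (minimum count 10, minimum total 15), normalized by TMM and compared pairwise by the two-sided quasi-likelihood test of edgeR 4.0.16 in R 4.3.3, over all 16475 genes. Calls used the study's unadjusted threshold of 0.01, with Benjamini-Hochberg adjustment over all tested genes beside it. The SE of a log2 fold change was its size divided by the root of F. The interaction used all 16 mice. Alternatives were median-ratio size factors, DESeq2 1.42.0, no filter, all mice in 1 fit, the share of reads outside genes as a covariate, the replicate number as a block, and leaving out each mouse. The scripts were tested on simulated counts. Intervals cover counting error only.

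Nothing says that libraries were prepared in separate batches or cultures of mice, and p-values measure the spread between these mice. Replicate libraries differed by more than counting noise (chi-square of at least 4.47 per degree of freedom). Labels number the mice 1 to 4. The check on pairing was the correlation across genes of same-numbered mice's deviations from their group means. It was over 0.1 in every pair only between WT-D and WT-S (0.114 to 0.340), where the block is given beside the result. The lowest correlations in the others were between -0.101 and 0.016.

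Named genes were those called in both genotype comparisons, the ends of stretches, up to 6 called in 1 comparison and up to 4 by p in each inhibitor comparison, called members of the function lists, and 14 genes chosen for their function. The members and lists were chosen with earlier results of these data known. Sequences are not reported here. One allele of the 3xTg strain is not reported here.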

Additional observations from a re-analysis of the deposited data

Results flagged for a closer look

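Among the 56 named genes, 18 of 224 groups of 4 held 1 mouse that stood apart from the other 3 by Dixon's test, in 13 genes, where chance gives about 1 group in 20. The largest were Ttr, at 638 CPM in WT-D mouse 4 and 246 CPM in WT-S mouse 1, Cd74, at 106 CPM in WT-D mouse 1 and 21.5 CPM in 3xTg-D mouse 2, and Iigp1, at 40.4, 12.6 and 11.1 CPM in WT-D mouse 1, 3xTg-D mouse 2 and 3xTg-S mouse 1. Eno1b stood apart on the low side, at 0.336 CPM in WT-D mouse 2 and 0.326 CPM in WT-S mouse 4. The single count of Gm50350 in 3xTg-D mouse 2, or 0.042 CPM, also stood apart.

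The other single mice differed less. WT-D mouse 1 had 243 CPM of Aqp4. WT-D mouse 4 had 59.4 CPM of Cdc23, 131 CPM of Gnal and 0.97 CPM of Gm31087. WT-S mouse 4 had 6.62 CPM of Tmco6 and 45.4 CPM of Elac1, WT-S mouse 3 had 3.12 CPM of 3222401L13Rik, and 3xTg-D mouse 2 had 10.4 CPM of Tnfaip8.

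The genotype difference itself differed between treatments, by the interaction term of edgeR at the unadjusted threshold of 0.01, for Ppargc1b (0.72 on the log2 scale, CAY10566 less vehicle), Rnf165 (0.27) and Gm31087 (-0.81). None of these had an adjusted p of 0.05 or less.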

How the results depend on the processing

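Of 55 calls of named genes by genotype, 38 held in every setting at the unadjusted threshold and 39 without each mouse in turn, and no direction reversed. At an adjusted p of 0.05 or less, calls numbered 14 with vehicle, 10 with CAY10566 and 0 in each inhibitor comparison and the interaction. Genes with a mean of 50 or more counts gave 22 calls by genotype with CAY10566. All 16 mice in 1 fit gave 8 calls for the inhibitor in 3xTg mice and 2 in WT mice, where DESeq2 gave 0 and no filter 3. Without each mouse in turn, calls by genotype numbered 27 to 39 with vehicle and 20 to 40 with CAY10566 (20 without 3xTg-S mouse 3), and calls of the inhibitor 0 to 14 in 3xTg mice (14 without 3xTg-S mouse 2, 0 without 3xTg-S mouse 4), 0 to 4 in WT mice and 2 to 14 for the interaction (14 without 3xTg-S mouse 2). Of the 8 calls in the inhibitor comparisons and the interaction, 1 (Ppargc1b) held without each mouse.

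Mice on which single calls rested were these. With vehicle, calls were lost for Ttr (without WT-D 4 or any 3xTg-D mouse), Rit2 (3xTg-D 1 or 3, WT-D 2 or 3), Hars (3xTg-D 1, 3 or 4, WT-D 1, 3 or 4), Ccbe1 (3xTg-D 1, 3 or 4, WT-D 2 or 3), Elac1 (WT-D 1) and Dym (3xTg-D 3 or 4, WT-D 3). With CAY10566 they were lost for Gm41662 (3xTg-S 2 or 3, WT-S 3 or 4), Lars (3xTg-S 3), Gm7276 (3xTg-S 3, WT-S 1, 2 or 3), Slc14a2 (3xTg-S 1, 2 or 4, WT-S 1) and Eif3s6-ps2 (3xTg-S 1 or 4), for Rit2, Slc6a7, Ppargc1b and Pmaip1 without 3xTg-S 1, 3 or 4 or WT-S 1, 2 or 3, and for Tnfaip8 without 3xTg-S 2, 3 or 4 or WT-S 1, 2 or 3. The 5 calls of the inhibitor were each lost without any one of 4 or 5 of the 8 mice, and the interactions of Rnf165 and Gm31087 without any one of 6 mice and without 3xTg-D 4. The call of Hars was also lost with all mice in 1 fit, with the share of reads outside genes as covariate and without the filter, that of Tmco6 and Ttr with the covariate, that of Ttr with the replicate block, that of Tnfaip8 with all mice in 1 fit, those of Gm19500 in WT mice and of the Gm31087 interaction by DESeq2 and without the filter, and both calls of Rnf165 without the filter.

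Stretches numbered 5 with at most 5 uncalled genes between neighbours, 1 with at least 4 called genes, 5 with the left-out genes put back, 1 at the adjusted threshold, 6 by DESeq2 and 1 to 4 without each mouse (1 without 3xTg-D mouse 1, 3xTg-D mouse 3 or WT-D mouse 3). The stretch from Zfp236 to Gm50350 had these same ends in 16 of 18 other settings and lay within a longer one in the rest. With single mice left out, the stretch from Hars to Gm26672 was placed only without 3xTg-D mouse 2 or WT-D mouse 2. One starting at Ccbe1 was placed only without 3xTg-D mouse 2, WT-D mouse 1 or WT-D mouse 4. A stretch from Jcad to Gm41662, absent from the main placement, appeared by DESeq2 and with the block. It also appeared with at most 5 uncalled genes between neighbours, and without 3xTg-D mouse 2 or 4. The cause of these shifts was not tested.

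With the replicate block, calls numbered 53 by genotype with CAY10566, 21 for the inhibitor in 3xTg mice and 17 for the interaction. Calls over all tested genes were not counted with the block or in the other alternative fits. The rise with the block therefore cannot be set against a background and is not read as a result about chromosome 18. For these comparisons the labels give only a shared number: 6, 4 and, by genotype with vehicle, 3 of 8 mice correlated best with their own number. The correlations ran from -0.101 to 0.496 by genotype with CAY10566 and from 0.016 to 0.391 for the inhibitor in 3xTg mice. Whether same-numbered mice share more than the number was not tested.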
